A study of Mus musculus with 36 samples.

Results

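E0771 is a mouse mammary carcinoma cell line that is grown as a transplantable tumour model. The comparison described here set E0771 cells given 40 mM KCl together with 10 µM BMS204352 against E0771 cells given DMSO, the vehicle of the compound. Each group held 3 libraries, 6 of the 36 in the series, and the genes compared were the 13357 expressed in E0771 out of 32285 mouse gene IDs in the table. Expressed means that the gene passed a filter on low counts over all 18 libraries of the line. E0771 cells given 40 mM KCl alone, 10 µM BMS204352 alone or 40 mM KCl with 10 µM NS11021, with 3 libraries each, served to find the genes that went back toward their DMSO level. The matching AT-3 groups, from another mouse mammary tumour line, served only for the comparison of lines. Cells had been plated for 24 h, and each treatment lasted 24 h. No group received another salt or an osmolyte at a matched strength, so raised potassium, chloride and osmotic strength cannot be told apart. Whether the KCl groups also held vehicle is not given in the sources used here. Nothing in the labels says that the 3 libraries of a group came from separate cultures, so the p-values measure the spread between these libraries, which may be technical.

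Potassium leaves a resting cell through open potassium channels and so keeps the inside of the membrane negative, and raising potassium outside the cell depolarizes it. BMS204352 opens the large-conductance calcium-activated potassium (BK) channel, whose pore is encoded by Kcnma1, and potassium channels of the KCNQ family. NS11021 is another BK opener. The series concerns genes driven by MRTFA, a coactivator that monomeric actin holds in the cytoplasm and that, once free, joins the factor SRF at CArG boxes in the promoters of actin and contractile genes. YAP and TAZ, coactivators of the TEAD factors, respond to tension and cell shape and share many of those genes. NFAT5 is the factor that induces osmolyte transporters and chaperones when salt outside the cell rises. ATF4 is the factor made when translation is slowed by the integrated stress response, and it drives amino acid synthesis and transport.

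E0771 cells held the epithelial keratin Krt8 at 202 counts per M of library total (CPM) on average in DMSO and 150.2 in KCl+BMS204352, but the other epithelial markers looked at were low. Cdh1, which encodes E-cadherin, averaged 1.41 and 0.599 CPM, Epcam, Krt7 and Krt18 stayed below that, and Cldn4 was at 0. Fibroblast markers were present in part. Pdgfra averaged 109 and 122 CPM, while Dcn and Lum were at 0. Of 5 fibroblast markers tested, 2 were called higher in KCl+BMS204352 and 1 lower, Col1a1, whose values follow below. The call of Pdgfra was lost without replicate 1 of DMSO or replicate 2 or 3 of KCl+BMS204352 (adjusted p = 0.10 to 0.25). Leukocyte markers Cd3e, Itgam and Tyrobp were at 0, and Lyz2, a lysozyme gene with a near-identical copy, averaged 5.65 and 2.68 CPM. The 6 leukocyte markers summed to 4.99 to 6.00 CPM in DMSO and 2.17 to 3.45 in KCl+BMS204352. The 6 endothelial markers summed to 1.5 to 1.90 and 3.23 to 4.50 CPM, with Pecam1 and Vwf higher in the double treatment and Emcn at 0, where Vwf missed the threshold without replicate 1 or 2 of DMSO or replicate 3 of KCl+BMS204352 (adjusted p = 0.057 to 0.069). The 7 fibroblast markers summed to 291 to 327 and 291 to 309 CPM. The part of these shifts in the results below was not tested. In bulk RNA, fewer cells of a type and less RNA per cell cannot be told apart. Kcnma1 itself was near the detection floor, at 0 to 0.178 CPM in the 6 libraries, and was not tested.

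The E0771 libraries held 31.2 to 47.9 M counts, with 34.7 to 41.0 M in DMSO and 34.2 to 44.9 M in KCl+BMS204352. On the first principal component, with 31.6% of the variance, the DMSO libraries lay at −16.7 to −14.7, KCl at 34.3 to 41.0 and BMS204352 at −36.9 to −28.7. The KCl+BMS204352 libraries lay between DMSO and KCl, at 11.3 to 15.6. Replicate 3 of KCl+BMS204352 stood apart on the second component (9.82% of the variance), at 15.2 against 0.179 and 3.93. Replicate 3 of BMS204352 stood apart on the third (5.43%), at 30.2. Transcripts of the mitochondrial genome took 0.789% to 1.03% of counts in KCl+BMS204352 and 0.626% to 0.720% in DMSO.

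Some promoter sequence is shown for genes whose values follow, because 3 of the gene groups are defined by factors with well-known binding motifs. The 250 bases before the annotated start were searched on both strands, in RefSeq windows of GRCm38.p6, and a window was found for 10106 of the tested genes. A gene was counted when any of its windows held a match. The ATF4 composite element TGATGNAA was found for 7 of 28 integrated stress response genes with a window. Over all tested genes with a window, it was found for 235 of 10106 (2.33%). Each stretch printed here runs in the gene's own direction, with the matched letters in capitals, and a match on the opposite strand reads as the reverse complement. Pycr1, Chac1 and Pck2 encode enzymes of proline synthesis, glutathione breakdown and mitochondrial phosphoenolpyruvate synthesis. Chac1 and Pck2 were chosen after their values were seen. The stretches are chr11:120643794-120643901 on the minus strand and chr2:119350999-119351106 and chr14:55540113-55540220 on the plus strand, and the matches lie 103, 193 and 103 bases before the start.
Pycr1: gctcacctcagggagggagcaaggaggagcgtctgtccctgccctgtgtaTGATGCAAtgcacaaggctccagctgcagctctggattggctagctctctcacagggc
Chac1: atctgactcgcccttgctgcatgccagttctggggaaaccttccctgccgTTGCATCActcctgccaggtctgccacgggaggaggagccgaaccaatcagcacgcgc
Pck2: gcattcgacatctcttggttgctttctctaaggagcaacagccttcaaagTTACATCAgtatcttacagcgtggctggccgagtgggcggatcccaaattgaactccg

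The CArG box was found for 8 of 33 MRTF-SRF targets with a window and for 1.43% of all tested genes with a window. Myl9, a myosin light chain, and Vcl, the adhesion protein vinculin, held it in the stretches chr2:156775253-156775362 and chr14:20929148-20929230, both on the plus strand, 161 and 227 bases before the start.
Myl9: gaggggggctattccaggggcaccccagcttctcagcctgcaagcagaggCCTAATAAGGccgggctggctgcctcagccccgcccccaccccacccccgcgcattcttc
Vcl: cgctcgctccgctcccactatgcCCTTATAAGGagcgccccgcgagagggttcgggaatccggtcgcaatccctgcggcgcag
The TEAD motif GGAATG was found for 9 of 14 YAP-TEAD targets with a window and for 12.8% of all tested genes with a window. Ccn1, a secreted matrix protein, and Ajuba, a LIM protein of cell junctions, held it on the strand opposite to the gene in chr3:145650033-145650138 and chr14:54577770-54577897, both on the minus strand.
Ccn1: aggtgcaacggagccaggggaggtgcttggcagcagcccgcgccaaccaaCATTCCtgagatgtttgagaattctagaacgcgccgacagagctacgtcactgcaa
Ajuba: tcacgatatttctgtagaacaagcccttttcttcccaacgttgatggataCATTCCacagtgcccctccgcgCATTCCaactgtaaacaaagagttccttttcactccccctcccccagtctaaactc
The letters of the sterol regulatory element, TCACNCCAC, were found for 1 of 17 cholesterol synthesis genes with a window, Hmgcs1. Over all tested genes with a window the share was 1.31%. A match describes these letters and is neither a binding site nor a cause, and a window without one says nothing of the factor.

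Which genes did the double treatment change from DMSO? Of 13357 genes, 3823 passed edgeR's quasi-likelihood test at an adjusted p under 0.05, or 28.6%, with 1872 higher (14.0%) and 1951 lower (14.6%). Genes of the hypertonic response were higher in 13 of 17 members and glycolysis genes in 15 of 35. Ribosome biogenesis genes were lower in 22 of 26 members and cholesterol synthesis genes in 17 of 25. Most of the changes were small, and 256 of the 3823 genes changed at least 2-fold, 217 higher and 39 lower. KCl alone changed more genes, 4860 or 36.4%, with 2381 higher (17.8%) and 2479 lower (18.6%), and BMS204352 alone changed 3028 or 22.7%, with 1516 higher (11.3%) and 1512 lower (11.3%). These 3 comparisons share the DMSO libraries. Against KCl alone, the double treatment called 2663 genes (19.9%), 1316 higher (9.85%) and 1347 lower (10.1%). Without replicate 3 of KCl+BMS204352 this count was 1759. Of the 3823 genes, 2545 (66.6%) were also called in the same direction for KCl alone and 1158 (30.3%) for BMS204352 alone. Neither single treatment was called for 581 (15.2%). A departure from the sum of both single log2 effects was called for 4 of these 581, against 1.62% of all genes. A gene in this class is thus not shown to need both treatments. Without replicate 3 of KCl+BMS204352, 2867 genes were called, and 2769 of the 3823 stayed called. The median log2 difference over all tested genes was 2.8e-03.

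The largest rises were in genes that KCl alone also raised. Gprc5b, an orphan receptor of the G protein-coupled family, stood at 2.24, 3.61 and 2.60 CPM in the DMSO libraries and at 20.9, 31.7 and 32.0 in KCl+BMS204352, a log2 difference of 3.32 ± 0.21 (adjusted p = 3.3e-09) or 9.99-fold. With KCl alone it stood at 28.9, 27.7 and 23 CPM, so the groups with KCl overlapped and both lay above every DMSO library. Its exons overlap those of other genes over 13.1% of their length, and without the counting strand such reads cannot be told apart. Ptgds, which encodes prostaglandin D synthase, rose from 1.51, 2.67 and 1.04 CPM to 12.6, 15.4 and 12.9, by 2.95 ± 0.22 (adjusted p = 1.1e-08). All 3 KCl libraries lay higher still, at 30.0, 34.7 and 24.2 CPM, with no overlap with the double treatment. The osmolyte transporter gene Slc5a3, which carries myo-inositol, went from 41.6, 45.4 and 46.3 CPM to 137, 168 and 180.3, by 1.86 ± 0.11 (adjusted p = 1.6e-08). Mical2, an actin-oxidizing enzyme that acts on nuclear actin, went from 31.7, 30.3 and 32.4 to 97.4, 115 and 126 CPM, by 1.84 ± 0.07 (adjusted p = 7.3e-17). Each error after a log2 difference is the standard error of the fitted value, with 3 libraries a group, and p-values are Benjamini-Hochberg adjusted over all genes tested. In each of these genes the lowest library with KCl+BMS204352 was above the highest DMSO library. A lack of overlap was a condition for naming the largest changes, and 5630 of the 13357 genes (42.2%) met it.

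Mgat3, a glycosyltransferase that adds the bisecting sugar of N-glycans, rose by 2.31 ± 0.20 (adjusted p = 9.0e-10) and Sod3, the extracellular superoxide dismutase, by 1.90 ± 0.15 (adjusted p = 9.9e-09). Slc25a29, a mitochondrial carrier of basic amino acids, rose by 1.62 ± 0.13 (adjusted p = 2.9e-10). Dusp1, a phosphatase that switches off MAP kinases, stood at 16.8, 17.3 and 16.1 CPM in DMSO, 84.4, 95.3 and 78.8 in KCl and 47.9, 49.1 and 58.4 in KCl+BMS204352. The double treatment lay between the other groups with no overlap with either, and its difference from DMSO was 1.63 ± 0.12 (adjusted p = 8.9e-09). Ier3, an early response gene, rose by 1.53 ± 0.06 (adjusted p = 2.0e-16). Mrgprf, Cilp2 and Olfm1 were also among the 12 largest rises, at 1.67, 1.52 and 1.51. S100a4, a calcium-binding protein linked to motility, went from 96.8, 101 and 109 CPM to 244, 283 and 255, by 1.34 ± 0.15 (adjusted p = 1.7e-05).

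Fewer genes fell 2-fold than rose 2-fold. Ccn2, a matrix protein and classic YAP-TEAD target, was at 6.90, 5.29 and 6.00 CPM in DMSO and 1.95, 2.01 and 1.74 in KCl+BMS204352, a log2 difference of −1.68 ± 0.25 (adjusted p = 1.4e-05). Its exons overlap those of other genes over 23.2% of their length. Ccn1 was at 31.2, 33.2 and 30.7 CPM in DMSO and 15, 13.3 and 11 in the double treatment, −1.28 ± 0.19 (adjusted p = 1.8e-04), while with KCl alone it was at 32.0, 27.5 and 24.8 and with BMS204352 alone at 29.6, 39.8 and 23.3. Each library of the double treatment lay below every library of these 3 groups. The interaction of both treatments for Ccn1 was −1.07 ± 0.26 and missed the threshold (adjusted p = 0.06). Edn2, the peptide endothelin-2, was at 9.27, 6.56 and 9.11 CPM in DMSO, 0.741, 0.539 and 2.08 in KCl and 3.50, 3.04 and 3.03 in KCl+BMS204352, −1.38 ± 0.29 (adjusted p = 9.8e-04) against DMSO. Here too the double treatment lay between, with no overlap.

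Col1a1, the main chain of fibrillar collagen, went from 74.4, 64.6 and 77.8 CPM to 39.5, 36 and 32.3, by −1.01 ± 0.13 (adjusted p = 1.8e-05), overlapping KCl alone at 34.2, 30.8 and 38.4. The de novo DNA methyltransferase gene Dnmt3b fell from 17.6, 17.8 and 18.6 CPM to 7.70, 8.91 and 9.49, by −1.05 ± 0.12 (adjusted p = 1.4e-07), with KCl alone lower at 5.61, 4.13 and 6.27. Slc5a5, the sodium-iodide symporter, fell by 1.21 on the log2 scale and Plb1, a phospholipase, by 1.12. Vdr, the vitamin D receptor, fell by 0.84 and Lyz2 by 1.07. Pradc1, Lrrc15, Zfp428 and Trdmt1, a tRNA methyltransferase, were at −0.86, −0.84, −0.84 and −0.84, and each was called. Zfp428 and Pradc1 share 17.7% and 10.5% of their exon length with other genes.

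**Figure D1:**
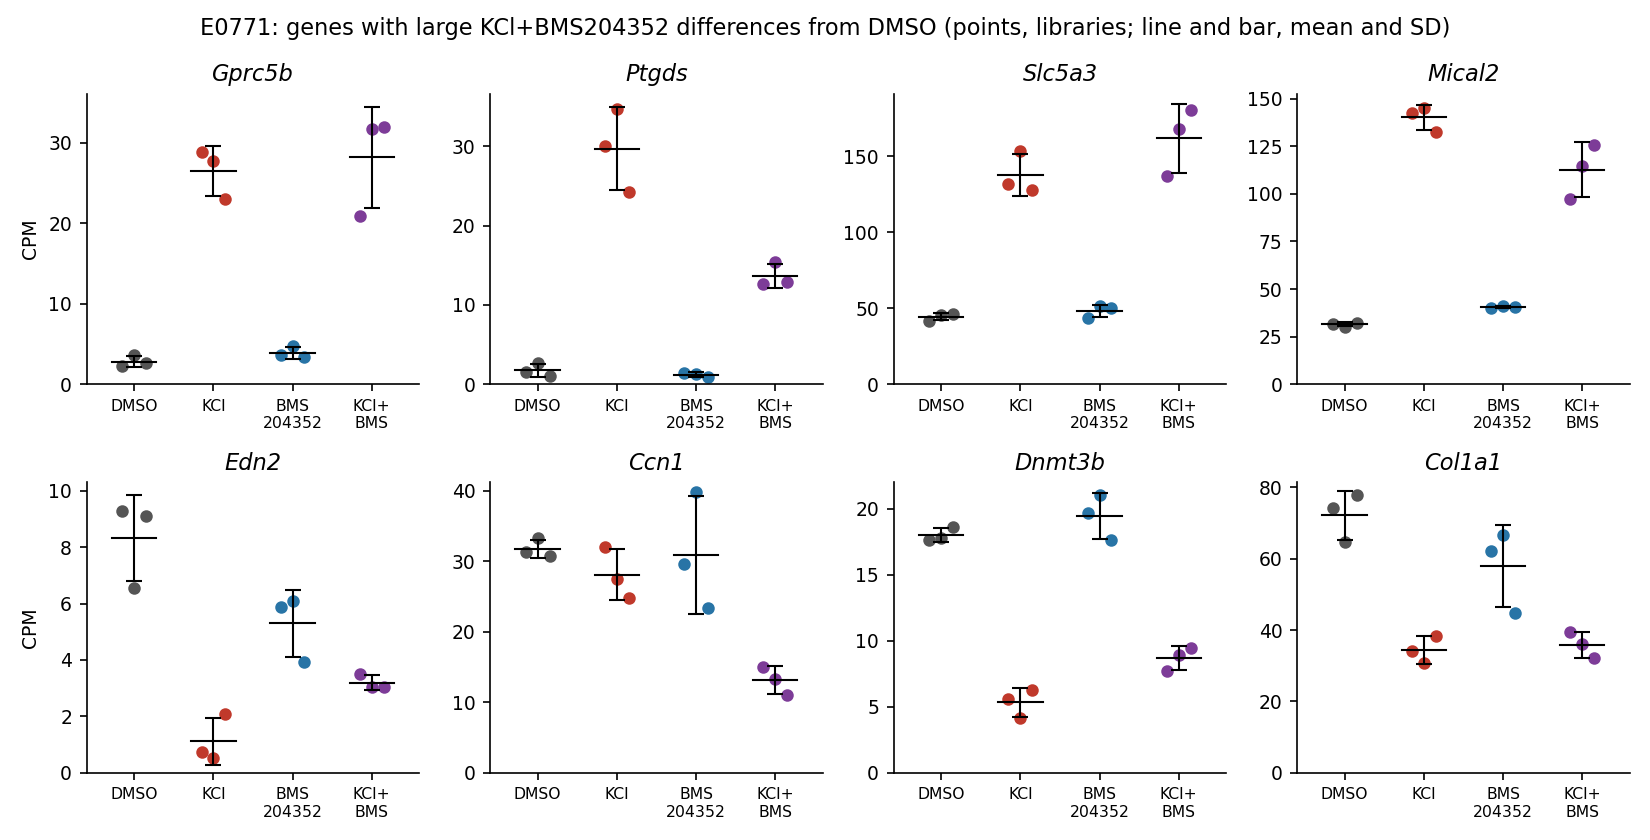
Counts per M (CPM) of 8 genes with large differences in E0771 libraries given DMSO, KCl, BMS204352 or both. Points are libraries, the line is the mean and the bar the SD of 3 libraries, and each axis starts at 0. Gprc5b and Slc5a3 were as high with both treatments as with KCl, Ptgds and Edn2 lay between DMSO and KCl, and Ccn1 was low in the double treatment.

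The plot of these genes by group shows that the same endpoint against DMSO was reached in different ways. Gprc5b, Slc5a3 and Col1a1 overlapped the KCl libraries, Edn2, Dnmt3b and Ptgds had moved part of the way back, and the 3 libraries of the double treatment lay below all others drawn for Ccn1.

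MRTF-SRF targets split, with more members lower than higher. Of 38 tested, 4 were higher and 11 lower than DMSO, with a median of −0.08 against 2.8e-03 over all genes. KCl alone had 11 higher and 4 lower, with a median of 0.08, and BMS204352 alone had 5 higher and 6 lower. Without replicate 3 of KCl+BMS204352, 7 members were lower. Srf itself was at 137, 132 and 139 CPM in DMSO and 125, 106 and 114 in the double treatment, −0.25 ± 0.06 (adjusted p = 0.0025), with no overlap. Mrtfa was higher, at 73.1, 74.8 and 78.6 against 57.4, 65.8 and 62.4 CPM, 0.29 ± 0.07 (adjusted p = 0.0014), and Mrtfb was not called at 0.11 ± 0.06 (adjusted p = 0.21). Tpm1, a tropomyosin that stabilizes actin filaments, stood at 365, 331 and 358 CPM in DMSO, 342, 358 and 345 in KCl and 276, 248 and 225 in KCl+BMS204352, −0.49 ± 0.08 (adjusted p = 1.2e-04). It lay below both other groups in every library. Actb, cytoplasmic beta-actin, fell by 0.24 ± 0.04 (adjusted p = 1.2e-05). Zyx and Filip1l, a focal adhesion protein and a filamin-binding protein, were higher, at 0.41 and 0.52. Vcl was at −0.09 ± 0.06 (adjusted p = 0.26).

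Of the contractile genes of smooth muscle type, Acta2 and Myl9 rose with KCl and did not stay higher in the double treatment. Acta2, smooth muscle actin, was at 86.7, 89.7 and 87.7 CPM in DMSO, 108, 111 and 125 in KCl and 66.9, 66.1 and 53.8 in KCl+BMS204352. Every library of the double treatment was below every DMSO library, −0.50 ± 0.14 (adjusted p = 0.014), and the difference from KCl was −0.89 ± 0.14 (adjusted p = 5.0e-04). Myl9 was at 1.32, 2.03 and 2.48 CPM in DMSO, 5.18, 5.75 and 5.19 in KCl and 1.53, 1.81 and 1.29 in the double treatment. It rose with KCl by 1.48 ± 0.23 (adjusted p = 6.4e-06), was lower with the double treatment than with KCl by 1.81 ± 0.24, and overlapped DMSO there, −0.33 ± 0.25 (adjusted p = 0.35). The difference of Acta2 from DMSO missed the threshold without replicate 3 of KCl+BMS204352 (adjusted p = 0.07). Tagln and Cnn1, transgelin and calponin, averaged 0.175 and 0.207 CPM in DMSO, too low for a reading.

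YAP-TEAD targets split as well, and several of their falls were large. Of 19 tested, 5 were higher and 7 lower than DMSO with a median of −0.13, while KCl alone had 10 higher and 2 lower with a median of 0.24. BMS204352 alone had 5 higher and 8 lower. Without replicate 1 or 2 of DMSO or replicate 3 of KCl+BMS204352, 3 members were higher. Besides Ccn1 and Ccn2, Amotl2, an angiomotin that binds YAP, was at 105, 95.5 and 106 CPM in DMSO, 50.7, 53.8 and 39.7 in BMS204352 and 62.0, 60.1 and 56.6 in KCl+BMS204352. It fell by 0.78 ± 0.08 (adjusted p = 2.1e-07), and no library of either BMS204352 group reached the DMSO range. Ajuba and Lats2, the latter a kinase that inhibits YAP, were at −0.34 and −0.36, both called. The receptor kinase Axl and Wwtr1, which encodes TAZ, were higher at 0.30 and 0.26. Thbs1, another secreted matrix protein of this kind, was called at −3.39 ± 1.24 but had at most 0.341 CPM in any DMSO library and 0 in 2 of 3 double-treated libraries, so its size is not read. It missed the threshold without replicate 1 or 2 of DMSO or replicate 1 or 2 of KCl+BMS204352 (adjusted p = 0.077 to 0.19), and with no filter (adjusted p = 0.12).

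Genes of the hypertonic response stayed higher in the double treatment. Of 17 tested NFAT5 genes, 13 were higher than DMSO and 0 lower, against 14.0% of all genes higher, and KCl alone had 14 higher and 0 lower. The median log2 difference was 0.72 with both treatments and 1.33 with KCl alone. Slc5a3, Slc6a9, a glycine transporter, Aqp1, a water channel, and Nfat5 itself rose with both treatments, at 1.86, 0.57, 1.26 and 0.84 against 1.64, 0.60, 1.46 and 0.87 with KCl, and their step from KCl was not called. Slc6a9 missed the threshold against DMSO without any one DMSO library or replicate 3 of KCl+BMS204352 (adjusted p = 0.061 to 0.17), and with no filter (adjusted p = 0.059). Others were called lower in the double treatment than in KCl, 8 in all. Akr1b3, the aldose reductase that makes sorbitol, was at 0.69 with both and 1.54 with KCl, and the chaperone gene Hspa4l at 0.72 and 1.14. The small heat shock protein gene Cryab moved most, from 58.7, 62.4 and 60.1 CPM in KCl to 30.9, 28.8 and 25 in the double treatment against 23.5, 24.5 and 24.7 in DMSO. It stayed above every DMSO library with 16.6% of its KCl difference left, but missed the threshold against DMSO without replicate 1 or 2 of DMSO or replicate 1 or 2 of KCl+BMS204352 (adjusted p = 0.057 to 0.18). Its exons overlap other genes over 17.0% of their length.

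Ribosome biogenesis genes stayed lower. Of 26 tested, 1 was higher and 22 lower than DMSO, where 14.6% of all genes were lower, and KCl alone had 24 lower and 0 higher. The medians were −0.28 and −0.29, and that of BMS204352 alone was −0.04. Nucleolin, encoded by Ncl, was at −0.35 ± 0.04 (adjusted p = 2.1e-07), the box C/D protein gene Nop58 at −0.35 ± 0.05, the RNA polymerase I subunit Polr1b at −0.43 ± 0.06 and the processing factor Rrp9 at −0.53 ± 0.05. Myc, which drives this programme in many cells, was at −0.30 ± 0.07 with both treatments, −0.54 with KCl and 0.37 with BMS204352. The member called higher was Polr1c at 0.21, which missed the threshold without replicate 3 of KCl+BMS204352 (adjusted p = 0.079).

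Glycolysis and hypoxia genes stayed higher in part. Of 35 tested HIF1 genes, 15 were higher and 1 lower than DMSO with a median of 0.15, against 23 higher and 3 lower with KCl alone. The glucose transporter gene Slc2a1 was at 0.69 ± 0.08 (adjusted p = 5.9e-06), the phosphofructokinases Pfkp and Pfkm at 0.36 and 0.41, the hexokinase Hk1 at 0.33 and the pyruvate kinase Pkm at 0.25. The glycolytic genes Ldha, Tpi1, Pfkl and Eno1 were called with KCl and not with both treatments, where they were at 0.05, 0.01, 0.03 and −0.01. Without replicate 3 of KCl+BMS204352, Ldha was at 0.10 and called (adjusted p = 0.02). The single member lower was Car12, a carbonic anhydrase, at −0.80.

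Adhesion and cortical cytoskeleton genes went both ways. Of 42 tested, 17 were higher and 10 lower than DMSO, against 20 and 4 with KCl alone, and without replicate 1 of DMSO 6 were lower. Against KCl, 3 were higher and 19 lower. Besides Mical2, the tensins Tns1 and Tns3, which link integrins to actin, rose by 0.77 ± 0.06 and 0.44 ± 0.07, less than their KCl values of 1.11 and 1.13, and the integrin gene Itgav was at 0.31 ± 0.05. Itgb4, an epithelial integrin, was higher with both treatments at 0.80 ± 0.14 and not called with KCl at 0.10. Lower members included the caveolar coat gene Cavin1 at −0.37 ± 0.09, the lamin gene Lmna at −0.35 ± 0.04 and the actin nucleator Diaph1 at −0.19 ± 0.05. Interferon and antigen presentation genes rose in 9 of 35 members and fell in 1, against 14.0% and 14.6% of all genes, with Irf7, an interferon-induced factor, at 1.08 ± 0.29 and Tapbp, a peptide loading protein, at 0.60 ± 0.06, and KCl alone had 10 higher and 2 lower. Without replicate 1 of DMSO or replicate 3 of KCl+BMS204352, 6 members were higher, and without replicate 3 of BMS204352, 2 were lower. Irf7 missed the threshold without replicate 3 of KCl+BMS204352 (adjusted p = 0.092).

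Cholesterol synthesis genes were lower with the double treatment. Of 25 tested, 17 were lower and 0 higher than DMSO, where KCl alone had 5 lower and 2 higher and BMS204352 alone 9 lower and 0 higher. The medians were −0.31, −0.02 and −0.11. Sqle, an epoxidase of the pathway, was at 116, 115 and 114 CPM in DMSO, 87.0, 78.4 and 74.2 in KCl and 81.2, 74.1 and 76.0 in the double treatment, −0.58 ± 0.08 (adjusted p = 2.5e-05). The double treatment overlapped KCl alone, and both lay below every DMSO library. The sterol sensor Insig1 was at −0.59 ± 0.12 (adjusted p = 8.7e-04) and Dhcr7, an enzyme of the last steps, at −0.58 ± 0.09. Fatty acid synthesis genes showed 8 lower and 1 higher of 17, among them the desaturases Fads2 at −0.52 and Scd1 at −0.32. The counts of the 3 treatments were not tested against each other.

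Cell cycle genes were lower in part, by small amounts. Of 34 genes of G1/S and DNA replication, 2 were higher and 17 lower with a median of −0.15, and KCl alone had 10 higher and 4 lower where BMS204352 alone had 0 higher and 20 lower. Cdc6, a replication licensing factor, was at 51.7, 54.6 and 53.9 CPM in DMSO and 42.8, 42.9 and 39.7 in the double treatment, −0.35 ± 0.06 (adjusted p = 6.3e-05), with no overlap. Cyclins Ccne2 and Ccnd1 were at −0.45 ± 0.07 and −0.40 ± 0.05, and the replicative helicase gene Mcm5 at −0.25 ± 0.05. E2f1 rose by 0.42 ± 0.06. Of 33 genes of G2/M and mitosis, 16 were lower and 0 higher with a median of −0.15, with Kif23, a mitotic kinesin, at −0.29 ± 0.04, Birc5 at −0.33 ± 0.05 and Mki67 at 0.02, not called. Without replicate 3 of KCl+BMS204352, 8 of the 33 were lower. Heat shock genes were 4 higher and 9 lower of 20 (6 lower without replicate 3 of KCl+BMS204352), led by Hspd1, the mitochondrial chaperonin, at −0.30 ± 0.04, and Hsp90aa1 at −0.32 ± 0.04.

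Mitochondrially encoded transcripts were higher in the double treatment in part. Of 13 tested, 5 were higher and 0 lower with a median of 0.42 against 0.03 with KCl alone. BMS204352 alone had 1 higher and 2 lower with a median of −0.17, so mt-Co1 below does not stand for the group there. The cytochrome oxidase subunit mt-Co1 was at 2423, 2269.5 and 2024 CPM in DMSO and 3147, 4256 and 4329 in KCl+BMS204352, 0.80 ± 0.18 (adjusted p = 0.0046), and with BMS204352 alone at 2386, 3534 and 4291. All libraries of the double treatment lay above DMSO and overlapped those of BMS204352 alone. Leaving out any one library of DMSO, or replicate 2 or 3 of KCl+BMS204352, left 1 to 3 of the 13 higher. The share of mitochondrial counts moves with this group, and its part in other results was not tested. Nuclear genes of the respiratory chain were 4 higher and 6 lower of 37, with 2 higher without replicate 3 of DMSO and 2 lower without replicate 3 of KCl+BMS204352. The share called, 27.0%, was near the 28.6% over all genes, so no shift of this group is read from it.

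**Figure D2:**
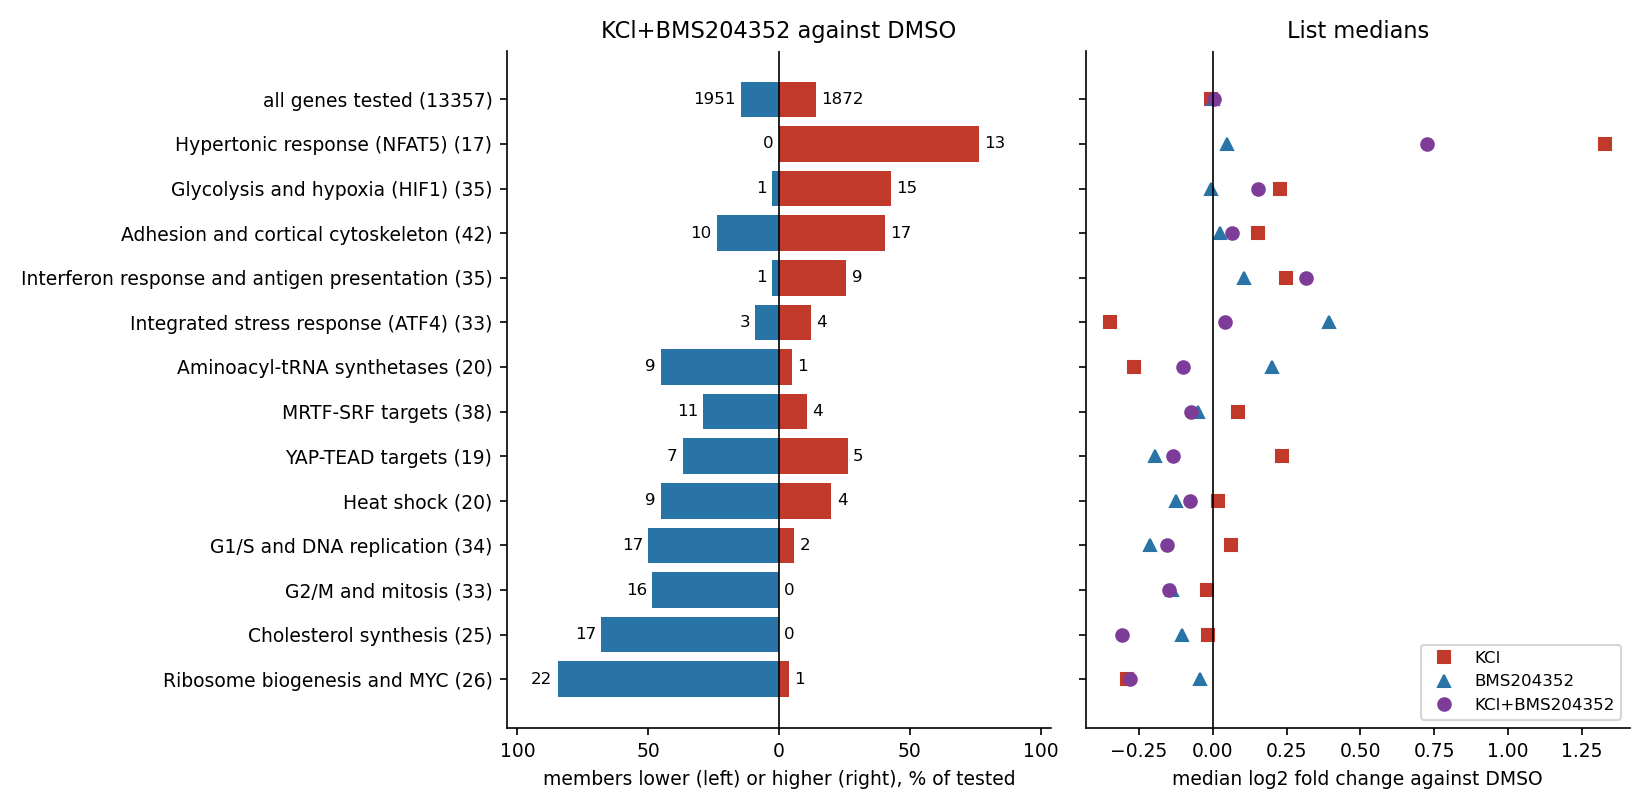
Left, share of tested members of each gene list that were lower or higher in KCl+BMS204352 than in DMSO, in percent, with counts. Right, the list's median log2 difference from DMSO for KCl, BMS204352 and both. NFAT5 genes lie to the right with KCl and with both treatments, ribosome biogenesis genes to the left, and ATF4 genes have opposite medians with KCl and with BMS204352 and a median near 0 with both.

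The plot of gene lists sets apart those whose median kept the direction of KCl in the double treatment from lists whose median lay close to 0. Ribosome biogenesis genes kept about the KCl median, at −0.28 against −0.29. NFAT5 genes kept its direction at a smaller size, 0.72 against 1.33. ATF4 genes were among the lists close to 0. Of 33 tested, 4 were higher and 3 lower with both treatments (2 higher without any one DMSO library or replicate 3 of KCl+BMS204352), with a median of 0.04. KCl alone had 3 higher and 17 lower with a median of −0.35, and BMS204352 alone had 18 higher and 0 lower with a median of 0.40. Pycr1, one of the genes printed with the ATF4 letters, was at 17.1, 16.1 and 15.9 CPM in DMSO, 6.56, 6.40 and 6.25 in KCl, 27.8, 25.8 and 39.0 in BMS204352 and 15.2, 14.0 and 20.3 with both. It was lowest in the KCl libraries and highest in the BMS204352 libraries, and the double treatment overlapped DMSO at 0.01 ± 0.14 (adjusted p = 0.96). Chac1 and Pck2 followed the same order, with 0.68 ± 0.14 (adjusted p = 6.6e-04) and 0.85 ± 0.10 (adjusted p = 3.3e-05) between the double treatment and KCl. Asns, asparagine synthetase, was at −0.47 with KCl and −0.09 with both, and Slc7a11, the cystine transporter, at −0.77 and −0.03. Ddit4 and Nupr1, stress-induced regulators, stayed higher at 0.97 and 0.67, and the amino acid transporter subunit Slc3a2 stayed lower at −0.51. Aminoacyl-tRNA synthetase genes, which charge tRNAs, were 1 higher and 9 lower of 20 with both, 15 lower with KCl and 14 higher with BMS204352.

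Which KCl genes went back toward DMSO? A gene was counted as returned when KCl against DMSO was called and KCl+BMS204352 against KCl was called in the opposite direction. Both comparisons use the 3 KCl libraries, which enter them with opposite signs, so the counts are descriptions and not tests. Of the 4860 KCl genes, 1657 or 34.1% had returned, 835 of 2381 that rose (35.1%) and 822 of 2479 that fell (33.2%). Another 62 had moved further from DMSO, and for 3141 the step from KCl was not called. Among genes not called for KCl, 944 of 8497 or 11.1% were called in that step. Of the returned genes, 1105 were not distinguished from DMSO, 504 were still away on the KCl side and 48 had passed DMSO. A gene not distinguished from DMSO is not shown to equal it. Without replicate 3 of KCl+BMS204352, 1290 genes counted as returned.

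**Figure D3:**
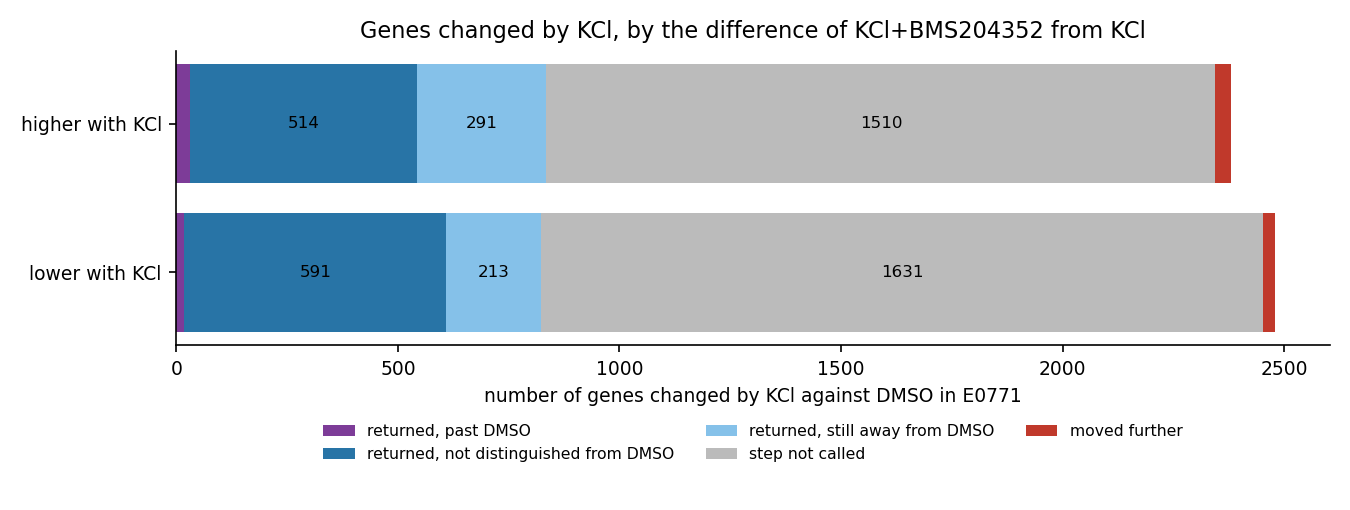
Numbers of E0771 genes changed by KCl, split by direction of the KCl change and stacked by what KCl+BMS204352 did to them. In both directions genes whose step from KCl was not called are the largest class, and returned genes not distinguished from DMSO (514 after a rise and 591 after a fall) outnumber those still away from it (291 and 213).

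In the stacked counts, 1510 of the genes that rose and 1631 of those that fell had no called step. The median share of the KCl difference left in the double treatment was 60.9% over all KCl genes, with quartiles at 31.1% and 88.9%, and 21.6% over the returned genes. Of the 479 genes that KCl changed at least 2-fold, 180 had returned. BMS204352 alone was called in the direction opposite to KCl for 735 of the 1657 returned genes and for 43 of the 48 that passed DMSO. Over all genes, BMS204352 alone was called higher for 11.3% and lower for 11.3%. The share over all KCl genes was not counted. The comparisons also share libraries, so nothing is read from these 2 counts. The number of KCl genes that returned is given by list, to be read beside 1657 of 4860 (34.1%) over all KCl genes. MRTF-SRF targets had 10 of 15, YAP-TEAD targets 8 of 12, ATF4 genes 13 of 20, adhesion genes 15 of 24, HIF1 genes 14 of 26 and NFAT5 genes 8 of 14. Ribosome biogenesis genes had 5 of 24 and nuclear respiratory chain genes 2 of 16.

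Returned genes with a log2 of mean CPM of 2 or more were ranked by their step back. After a KCl rise the largest was that of Cacna1a, the pore of a voltage-gated calcium channel. This gene was at 24.4, 24.6 and 25.1 CPM in DMSO, 50.2, 47.7 and 46.0 in KCl, 8.24, 8.82 and 5.30 in BMS204352 and 19.9, 18 and 11.5 with both. The double treatment lay below DMSO in all 3 libraries, −0.59 ± 0.18 (adjusted p = 0.024), and BMS204352 alone lay lower still. The difference of Cacna1a from DMSO missed the threshold without any one DMSO library (adjusted p = 0.055 to 0.064). Cavin2, a caveolar coat protein, was at 1.85, 2.54 and 2.25 CPM in DMSO, 9.58, 12.1 and 10.1 in KCl and 3.4, 4.38 and 4.10 with both, and 36.9% of its KCl difference was left. Igf2bp1, an RNA-binding protein of fetal tissue, rose with KCl by 0.90 and was at −0.44 ± 0.17 (adjusted p = 0.07) with both. That gene was called below DMSO without replicate 3 of BMS204352 (adjusted p = 8.3e-04), without replicate 1 of KCl+BMS204352 (adjusted p = 0.04), with no filter (adjusted p = 7.9e-04) and with the libraries of these groups alone (adjusted p = 0.0043). Ly6c1, a surface antigen, and Cgnl1, a junction protein, were part of the way back at 1.41 ± 0.20 and 0.50 ± 0.12 after KCl values of 2.74 and 1.57. Klra4, named for a receptor of natural killer cells, was at −0.11 ± 0.22 after 1.06. Ly6c1 and Klra4 belong to families of near-identical genes, so their counts are uncertain. Igfbp5, a binder of insulin-like growth factors, kept 78.0% of its KCl rise.

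After a KCl fall, Disp2, of the Dispatched family, was at 6.10, 5.75 and 6.57 CPM in DMSO, 3.39, 2.63 and 3.68 in KCl and 8.19, 8.59 and 14.5 with both, and so had passed DMSO at 0.77 ± 0.26 (adjusted p = 0.038). That call was lost without any one DMSO library or replicate 3 of KCl+BMS204352 (adjusted p = 0.073 to 0.19). Arrdc3, an arrestin domain adaptor of receptor degradation, was at 28.4, 28 and 29.7 CPM in DMSO, 16.3, 13.8 and 16.2 in KCl, 48.2, 40.1 and 54.9 in BMS204352 and 31.7, 32.9 and 35.2 with both. Its double-treated libraries lay above all DMSO libraries, but the difference was not called, 0.21 ± 0.09 (adjusted p = 0.063). It was called without replicate 3 of BMS204352 (adjusted p = 0.025), with no filter or with the libraries of these groups alone (adjusted p = 0.028 in both). Hspb11, an intraflagellar transport gene, went from 3.91, 2.81 and 4.86 CPM in KCl to 8.73, 9.17 and 8.15 against 8.88, 8.22 and 9.34 in DMSO. Gadd45a, a DNA damage and growth arrest gene, was at −0.01 ± 0.28 after −1.01 with KCl, and its exons overlap other genes over 19.1% of their length. Nat9, Eepd1 and Flt3l, an acetyltransferase-like gene, a nuclease of DNA repair and a haematopoietic ligand, were at 0.31, −0.06 and 0.14 after −0.70, −1.06 and −0.83.

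**Figure D4:**
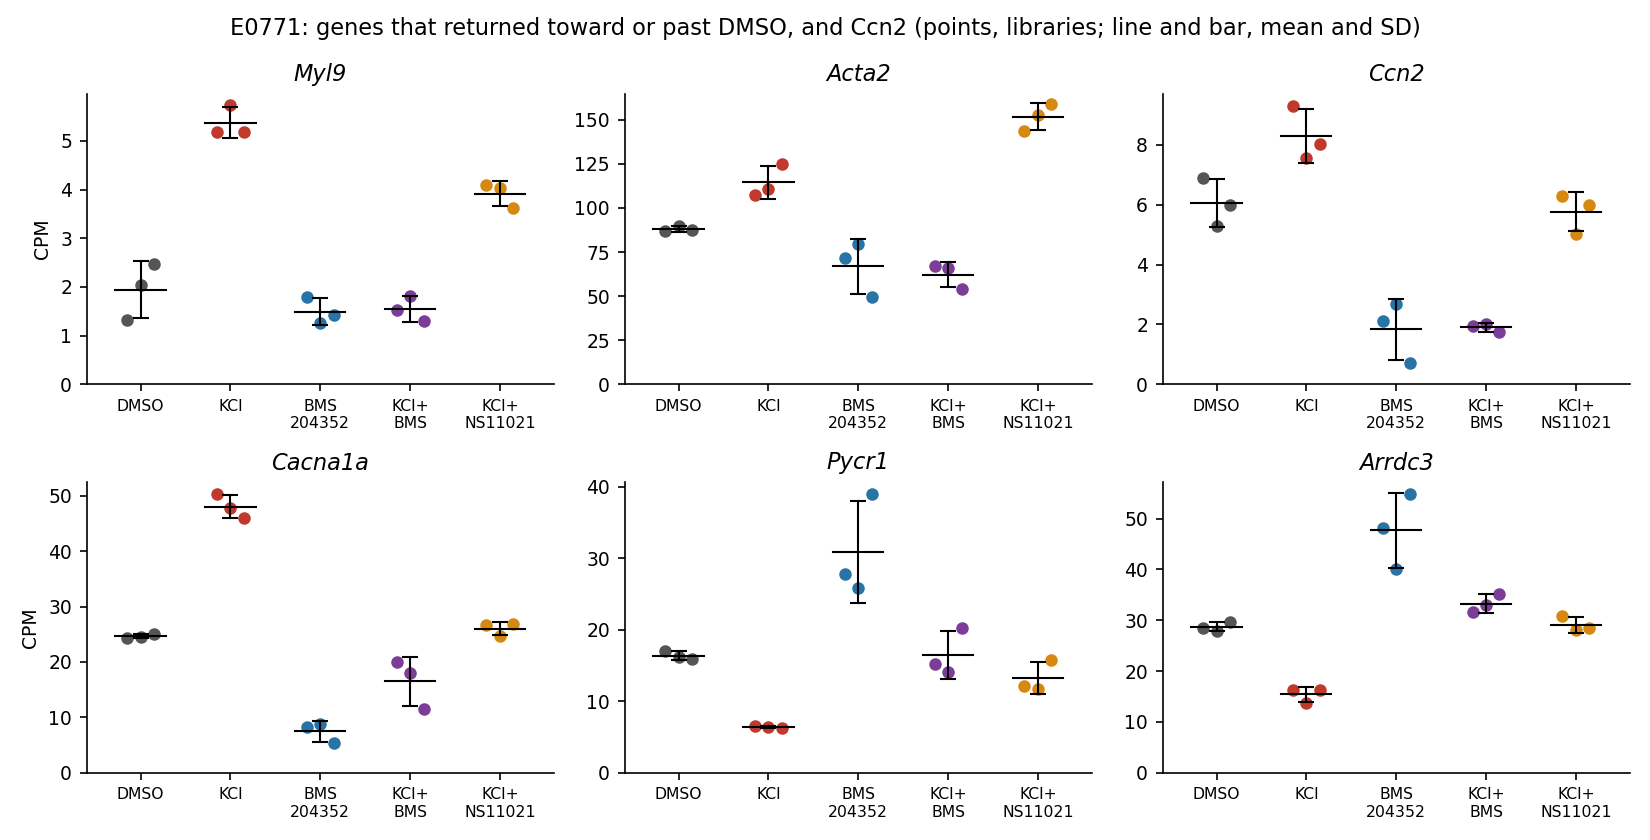
Counts per M (CPM) of 6 genes in E0771 libraries given DMSO, KCl, BMS204352, KCl+BMS204352 or KCl+NS11021. Points are libraries, the line is the mean and the bar the SD of 3 libraries. Myl9, Acta2 and Cacna1a rose with KCl and lay at or below DMSO with KCl+BMS204352, Pycr1 and Arrdc3 fell with KCl, and with both Pycr1 overlapped DMSO and Arrdc3 lay above it, and Ccn2 was low in both BMS204352 groups.

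The plot of returning genes shows that BMS204352 alone moved Cacna1a, Pycr1 and Arrdc3 in the direction opposite to KCl. For Myl9, BMS204352 alone gave −0.37 ± 0.25 and the step from KCl was −1.81 ± 0.24. The interaction value of Myl9 is not given here, so no difference between these is claimed. With KCl+NS11021 Myl9 was at 4.09, 4.03 and 3.62 CPM and Acta2 at 144, 153 and 159, and KCl+BMS204352 differed from that by −1.36 ± 0.24 (adjusted p = 4.0e-04) and −1.30 ± 0.14 (adjusted p = 9.4e-05).

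Was the double treatment the sum of both single treatments on the log2 scale? The interaction was called for 217 genes (1.62%), 76 positive and 141 negative. The count was 83 without replicate 2 of KCl and 91 without its replicate 1, 106 without replicate 1 of KCl+BMS204352 and 122 to 136 without any one DMSO library or replicate 2 of KCl+BMS204352. Dusp1 had −1.19 ± 0.16 (adjusted p = 6.8e-04), and Ampd3, an AMP deaminase, −1.10 ± 0.10 (adjusted p = 5.2e-08). Ampd3 was at 25, 21.5 and 21.8 CPM in DMSO, 96.7, 107 and 88.0 in KCl, 27.7, 28.4 and 32.1 in BMS204352 and 57.0, 60.7 and 59.6 with both, so BMS204352 came with more Ampd3 without KCl and less with it. Il34, a ligand of the macrophage growth factor receptor, had −1.16 ± 0.22 (adjusted p = 0.0059), Slc45a3 −1.06 ± 0.27 and Ndrg2 −1.01 ± 0.22. Positive values were led by Edn2 at 2.11 ± 0.43 (adjusted p = 0.016). Slc5a5 had 1.26 ± 0.30, Epor, the erythropoietin receptor, 1.13 ± 0.26, the corepressor gene Tle2 1.10 ± 0.22 and Prr5, a subunit of a TOR complex, 1.04 ± 0.17. Slc5a5 was at 12.8, 11.7 and 13.0 CPM in KCl, 6.27, 10.1 and 4.83 in BMS204352 and 12.3, 9.70 and 6.88 with both, from 22.4, 22.5 and 21.7 in DMSO. Adhesion genes had 0 positive and 7 negative interactions of 42, and NFAT5 genes 0 and 4 of 17.

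Against KCl+NS11021, the same KCl with the other opener at the same dose, 661 genes (4.95%) were called, 138 higher and 523 lower. Leaving out any one library of KCl+NS11021, or replicate 1 or 2 of KCl+BMS204352, gave 356 to 434, and leaving out replicate 3 of BMS204352, which enters the spread, gave 1007. Both compounds are known as BK openers, and BMS204352 also opens KCNQ channels. Ptgds, Ly6c1 and Accsl were lower with BMS204352. Ly6c1 was at 9.82, 9.58 and 8.69 CPM against 22.3, 23 and 25.3 with NS11021 and 19.8, 24.9 and 25.1 with KCl alone, −1.34 ± 0.18 (adjusted p = 7.2e-05) between the compounds. Ptgds differed by −1.53 ± 0.17 (adjusted p = 3.1e-05) and Accsl by −1.62 ± 0.31. Ccn5, a matrix protein related to Ccn1, was at 5.23, 4.56 and 6.37 CPM against 12.6, 15.7 and 13.8, −1.39 ± 0.14 (adjusted p = 1.4e-07), with KCl alone between them at 7.72, 6.67 and 7.45. Myo18b, a myosin, differed by −1.35 ± 0.33. The higher genes were fewer, and 4 of them changed at least 2-fold against 34 of the lower ones. Among higher genes that met the naming rule, the linker histone gene Hist1h1c was first at 0.73 ± 0.12 (adjusted p = 3.0e-04). For Hist1h1c, KCl+NS11021 was low at 11.5, 11.6 and 11.8 CPM. The double treatment with BMS204352 was at 22.7, 19.3 and 16.5 against 27.9, 21.8 and 20.3 in DMSO. The others by rule were mt-Nd4l, Zfp763, Hspb11 and Slc18b1, at 0.64, 0.62, 0.59 and 0.55. Adhesion genes were 1 higher and 14 lower of 42, and MRTF-SRF targets 0 higher and 13 lower of 38, where 3.92% of all genes were lower.

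The effect of KCl+BMS204352 differed between E0771 and AT-3 for 883 of 15969 genes (5.53%), 379 more positive and 504 more negative in E0771. The count was 559 to 568 without replicate 1 of DMSO or replicate 2 or 3 of KCl+BMS204352 in E0771. It was 1424 without replicate 3 of BMS204352 in both lines. Gprc5b was at 9.19, 10.3 and 8.16 CPM in AT-3 given DMSO and 8.39, 12.3 and 6.19 in AT-3 given both, and the effect in E0771 exceeded that in AT-3 by 3.36 ± 0.35 (adjusted p = 5.7e-07). Mical2 exceeded it by 1.73 ± 0.14 (adjusted p = 6.2e-10) and Igfbp5 by 4.15 ± 0.48 (adjusted p = 5.5e-06). The effects on Ccn1 and Ccn2 were more negative in E0771, with line differences of −1.55 ± 0.34 (adjusted p = 0.0075) and −2.20 ± 0.42 (adjusted p = 0.0021), and Col1a1 had −1.42 ± 0.21 (adjusted p = 7.4e-05). Ccn1 in AT-3 was at 150.3, 113 and 160.0 CPM with DMSO and 153, 127 and 229.5 with both. The split by direction turned under other settings, with 571 of 994 genes more positive under a filter of 1 CPM in 3 libraries, 379 of 693 with no filter and 527 of 922 with halved counts.

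Other lists are given by their counts, to be read beside the 14.0% of all genes that were higher and the 14.6% that were lower. Immediate early genes were 6 higher and 8 lower of 25 (5 lower without replicate 3 of DMSO or replicate 1 or 2 of KCl+BMS204352), with Arc, a neuronal activity gene, at 0.80 ± 0.11 and Klf2, a zinc finger factor, at −0.73 ± 0.13. Feedback genes of ERK signalling were 4 higher and 2 lower of 15 (0 lower without replicate 1 of DMSO and 1 without any one KCl+BMS204352 library). Their median was 0.16, and BMS204352 alone had 8 higher and 0 lower. Hbegf, a ligand of the EGF receptor, was among the lower members at −0.32 ± 0.11. Potassium channel and pump genes were 4 higher and 3 lower of 17 (1 lower without replicate 1 or 3 of DMSO). The channel genes Kcnh2 and Kcnq5 were at 0.57 ± 0.11 and −0.40 ± 0.14, and Slc12a2, the sodium-potassium-chloride cotransporter gene, at −0.21 ± 0.06. Calcium handling genes were 8 higher and 2 lower of 31 (5 lower without replicate 3 of BMS204352, 4 with no filter), with the calcium channel gene Cacna1c at 0.52 ± 0.11 and the release channel gene Itpr3 at 0.35 ± 0.06. Collagen and matrix genes were 7 higher and 6 lower of 32, with the laminin gene Lamb1 at 0.94 ± 0.28, Col18a1 at 0.43 ± 0.04 and Tnc at −0.42 ± 0.10. Targets of p53 were 3 higher and 8 lower of 25, with Trp53inp1 at 1.34 ± 0.33 and Ccng1 at −0.45 ± 0.06. NRF2 targets were 6 higher and 5 lower of 25 (3 lower without replicate 1 of DMSO or replicate 3 of KCl+BMS204352). ER chaperones were 0 higher and 6 lower of 22 (3 lower without replicate 3 of DMSO, 2 higher without replicate 1 of KCl+BMS204352), and lysosome genes 6 higher and 2 lower of 27 (1 lower without replicate 1 of DMSO or replicate 2 of KCl+BMS204352). Ly6 surface antigens, a family of similar genes whose counts are uncertain, were 2 higher and 0 lower of 6 with a median of 0.89 (1 lower without replicate 3 of BMS204352), and all 4 that KCl called had returned. Among the genes named here, Hbegf missed the threshold without replicate 1 of DMSO or replicate 1 or 2 of KCl+BMS204352 (adjusted p = 0.069 to 0.3), Kcnq5 without replicate 1 or 3 of DMSO or replicate 1 or 2 of KCl+BMS204352 (adjusted p = 0.065 to 0.14), Slc12a2 without replicate 3 of DMSO or replicate 1 of KCl+BMS204352 (adjusted p = 0.058 to 0.094) and Lamb1 without replicate 2 of DMSO or replicate 3 of KCl+BMS204352 (adjusted p = 0.06 to 0.074).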

How the data were processed

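The deposited table holds whole-number counts per gene from the authors, with no normalization. STAR, featureCounts and GRCm38 are named per the submitters' processing notes, while versions, settings and strandedness were not given in the sources used here. The library kit was NuGen Universal Plus mRNA, per the labels. Of 32287 identifiers, 2 written as human identifiers (6 counts together) were dropped. Symbols and exon overlaps came from the GENCODE mouse annotation, and 50 identifiers without a symbol there held 0.000914% of counts. All 36 columns were matched to samples. Deposited counts from 1 to 10 were even in 83.4% of cases in the E0771 libraries. This would arise if both mates of most pairs were counted, so halved counts were an alternative.

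The 18 E0771 libraries were fitted together in edgeR 4.0.16 (R 4.3.3) with TMM scaling, filterByExpr (minimum count 10, minimum total 15) and the robust quasi-likelihood test. Fold changes used a prior count of 0.125, standard errors were the log2 change divided by the square root of F, and p-values were adjusted over all genes of each comparison by Benjamini-Hochberg with a threshold of 0.05. The cell line difference used a fit of all 36 libraries. The script was tested on simulated data. Named genes were a panel of actin, SRF and YAP genes, the largest changes, and the list members of smallest p. The largest changes were taken among genes with a log2 of mean CPM of 2 or more. For changes against DMSO and against KCl+NS11021, no overlap between the libraries compared was also required. Lats2, Nfat5, Akr1b3, Chac1, Asns, Pck2, Slc7a11, Hmgcs1, Insig1, Pfkl, Tpi1, Eno1, Ldha, Mcm5, Mki67, Nop58, Itgb4 and Cavin1 are outside that rule and were chosen after their values were seen. The gene lists and comparisons were chosen with earlier results of these data known. Alternatives were DESeq2 1.42.0, its size factors, other filters, a replicate block, fewer libraries in the fit, halved counts and leaving out libraries. Some genes are not reported here.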

Additional observations from a re-analysis of the deposited data

Results flagged for a closer look

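Of the 35 genes in the panel of actin, SRF and YAP genes or among the largest changes of KCl+BMS204352 against DMSO, 9 had an effect that differed between E0771 and AT-3 by the contrast of both effects in edgeR (Benjamini-Hochberg adjusted p under 0.05 over all genes, 3 libraries a group). Over all genes tested the share was 5.53%, and part of the 35 were picked for large E0771 effects, which enter this contrast, so nothing is read from the higher share. The values below are the log2 effect in E0771 minus that in AT-3.

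Ccn1 differed by -1.55 ± 0.34 (SE), with an AT-3 effect of 0.28 ± 0.23, and Ccn2 by -2.20 ± 0.42, with an AT-3 effect of 0.52 ± 0.23. The collagen gene Col1a1 differed by -1.42 ± 0.21. The nuclear receptor gene Vdr differed by -0.87 ± 0.21 and Zfp428 by -0.81 ± 0.17, where the AT-3 effects were 0.04 ± 0.13 and -0.02 ± 0.12.

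Gprc5b differed by 3.36 ± 0.35 and had an AT-3 effect of -0.04 ± 0.24. Mical2, whose product oxidises actin, differed by 1.73 ± 0.14 and had an AT-3 effect of 0.11 ± 0.10. Slc25a29, a mitochondrial carrier of basic amino acids, differed by 0.88 ± 0.22 and was higher in AT-3 as well, by 0.74 ± 0.16. The difference of 4.61 ± 1.04 for Ptgds rests on an AT-3 effect of -1.66 ± 1.01 from few counts.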

How the results depend on the processing

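The counts of called genes for KCl+BMS204352 against DMSO (3823), against KCl (2663) and of KCl genes that returned (1657) stayed within 1.5 times of these values under every alternative that kept all libraries and all KCl genes. With KCl genes limited to changes of at least 2-fold, 180 returned. The interaction count of 217 became 396 with the DESeq2 Wald test, 415 with no filter, 111 with only the libraries compared and 373 without replicate 3 of KCl+BMS204352 and of BMS204352 together, an alternative chosen after seeing the data. That last setting gave 1081 genes for KCl+BMS204352 against KCl+NS11021, in place of 661. The cell line difference was called for 1376 genes with DESeq2, in place of 883. The cause of these shifts was not tested.

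Leaving out 1 library at a time gave 2867 to 4331 genes against DMSO, 1759 to 3240 against KCl and 1130 to 1985 returned. It gave 83 to 322 interactions, 356 to 1007 against KCl+NS11021 and 559 to 892 for the cell line difference. Leaving out replicate 3 of BMS204352 in both lines together gave 1424 for that difference. A group left with 2 libraries is assumed to vary like the others. Of 120 named genes called against DMSO, 20 missed the threshold in at least 1 of 15 alternatives, 3 of them in one other than leaving out a library, and 0 reversed.

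Same-numbered libraries of DMSO and KCl+BMS204352 had deviations that correlated at -0.024 to 0.039, and those of BMS204352 and KCl+BMS204352 at 0.045 to 0.16, where differently numbered ones were at -0.11 to 0.033. For KCl with KCl+NS11021 the same-numbered ones were at 0.025 to 0.028 and the others at most -8.1e-04. For KCl+BMS204352 with KCl+NS11021 they were at 0.0093 to 0.036 and at most 0.0045. In the other pairs of groups looked at, the ranges overlapped. Not every correlation was over 0.1, so the numbers were not taken as pairs. That cut-off is not a test, and a weak effect shared by number was not tested. With the replicate block, 4061 genes were called against DMSO and 335 for the interaction. The edgeR calls against DMSO of Slc6a9, Thbs1 and Tle2 were lost under the block (adjusted p = 0.06, 0.056 and 0.073), and Arrdc3, Igf2bp1 and Hist1h1c were called under it (0.033, 0.047 and 0.034). For genes near 0 CPM, such as Kcnma1 and Thbs1, few counts limit any reading.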
